A study of Bos taurus with 53 samples.

Results

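The genes described here encode the protein components of the cytosolic ribosome. They were chosen by symbol: every feature named RPL or RPS followed by digits and at most 1 of the letters A, X, Y or L, together with RPSA and RPLP0 to RPLP2. This rule found 47 of the 24596 features in the deposited table, 26 of the large subunit (RPL and RPLP) and 21 of the small subunit (RPS and RPSA). RPL5, RPLP2 and RPS4X are not analysed here. Of the 47, 37 had several exons and 10 a single exon, and 2 (RPL10L and RPL7) had no read in any library.

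Ribosomal proteins are made in nearly equal amounts and assembled on ribosomal RNA in the nucleolus, so that a cell's supply of ribosomes sets how much protein it can make. Their messenger RNAs start with a run of pyrimidines through which the mTORC1 kinase and LARP1 control their translation and stability. In the elongating ruminant embryo the trophectoderm expands rapidly, while the embryonic disc, which forms the embryo proper, stays small.

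Messenger RNA was sequenced from bovine embryos collected on day 14 and cut into the embryonic disc (ED) and the extra-embryonic part (EX), which is trophectoderm with its hypoblast lining. Only the oocytes were treated, during maturation in vitro: CONTROL medium held no fatty acid and no solvent, BASAL held palmitic acid at 23 µM with stearic acid at 28 µM and oleic acid at 21 µM, and HIGH PA raised palmitic acid alone to 150 µM. Both fatty acid media held 0.45% ethanol, and all oocytes were fertilised in vitro and the blastocysts placed in the uterus of recipient cows. The 53 libraries came from 30 embryos of 7 cows: 12 BASAL, 8 HIGH PA and 3 CONTROL discs, 14 BASAL, 10 HIGH PA and 4 CONTROL EX samples, and 2 undissected HIGH PA embryos. All CONTROL embryos grew in 1 cow. Embryos of a cow and medium were taken as 1 flush of a shared uterus, but the labels give no flush date. The p-values thus measure the spread between embryos that are not all independent. RNA was extracted with a micro kit for discs and a mini kit for EX, so tissue and kit cannot be told apart. The letters A to E of the library names, taken here as plate rows, also split by tissue. Discs had A and B, and EX samples had C to E apart from EX BASAL replicate 1 with B. Most discs ran on lanes L001 and L002 and most EX samples on L003, L004 or L008. Read depth was mostly lower in discs. Tissue cannot be separated from these either. In such bulk samples fewer cells of a type and less RNA per cell cannot be told apart either.

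Libraries held 6814 to 6167850 exon reads in discs and 9810 to 19533821 in EX. The 2 libraries under 10000 reads were kept in the fits and left out of the means. Disc markers fell in EX as labelled: all 8 tested epiblast markers and all 9 tested streak and mesoderm markers were called lower there by edgeR. Summed marker levels are given as raw CPM, reads per 1000000 exon reads without further scaling. For epiblast the sum was 763 ± 333 raw CPM in ED and 154 ± 81.9 in EX (SD, n = 22 and 27). The library labelled ED BASAL replicate 12 went against its label, with 160 and 2.40 raw CPM for the 2 lists. In 7 EX libraries the library name in the deposited column carried an added 2, whose meaning none of the sources used here gives. These libraries, called marked below, were EX HIGH PA replicates 1, 3, 6 and 10 and EX BASAL replicates 5, 6 and 11. On average they stood apart: the 47 genes took 5.40 ± 0.99% of their exon reads against 4.21 ± 0.33% in the 20 unmarked EX libraries. Mitochondrially encoded genes took 9.94 ± 5.65% against 4.42 ± 0.97%. Not every marked library did so. The 2 shares were 4.08% and 4.15% in EX HIGH PA replicate 1 and 4.23% and 5.86% in EX HIGH PA replicate 10, within the range of unmarked libraries. Of the marked libraries 5 were among the 9 ovoid, 1 among the 17 tubular and 1 among the 2 spherical EX samples. Results that rest on them are given with and without them.

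Levels are given as normalised CPM, the reads of a gene per 1000000 exon reads after edgeR's trimmed-mean (TMM) scaling of each library. Of the 47 genes, 36 averaged over 100 normalised CPM over the ED and EX libraries above 10000 reads, and 7 averaged under 1. Per kilobase of exon, the highest levels were those of RPS2, a small subunit protein at the entry of the messenger RNA channel, at 3915 normalised CPM per kb, RPLP1, an acidic protein of the stalk that recruits elongation factors, at 3906, RPS12 at 3645 and RPS20 at 3090. RPSA, which sits at the back of the small subunit and is also known as the laminin receptor precursor, stood at 2570 per kb, and RPLP0, the base of the stalk, at 2544. The lowest per kb among the several-exon genes above 100 normalised CPM were RPL37A at 950 and the X-linked RPL39 at 397. RPS2 lies on chromosome 25 from 1520493 to 1522670 (build UMD3.1, 8 exons), RPLP1 on chromosome 10 from 16324341 to 16326492 (4 exons) and RPLP0 on chromosome 17 from 64809254 to 64813289 (9 exons).

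The tissue-restricted copies had almost no reads. RPL3L, the striated muscle counterpart of RPL3 (10 exons, chromosome 25, 1508568 to 1515379), had 10 reads in 7 of the 53 libraries, and RPL10L, the testis counterpart of RPL10, had 0. Neither RPL3 nor RPL10 could be set beside its counterpart, and both are not analysed here. RPL7, a several-exon row on chromosome 4, also had 0 reads.

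The single-exon rows need care. These 10 features (among them RPL8, RPL10L, RPL12, RPL23, RPL30, RPL36, RPS6, RPS16 and RPS29) have no annotated junction, so their 0 junction reads carry no information. A single exon is the form that processed copies of a spliced gene take, and whether the row is the working gene was not tested. RPL12 alone among them reached the level of the several-exon genes, at 1373 normalised CPM per kb, and 19.8% of its 203305 reads were uniquely placed. Only 0.121% of the 5776 reads on RPL36 and 33.6% of the 1204 on RPS6 were uniquely placed, so these values can belong to copies elsewhere in the genome. RPS29 (chromosome 10, 26814899 to 26815069) had 4462 reads, 99.5% of them unique, and stood at 81.5 normalised CPM per kb. RPL36 stood at 74.6 per kb, RPS16 at 10.7 and RPS6 at 6.86. RPL8, RPL30 and RPL23 had 161, 45 and 1 reads in all. They, RPL3L, RPL10L and RPL7 were among the 7 members that did not pass edgeR's filter on low counts in the comparison of the 2 parts. Reads were also mostly shared on 3 several-exon genes: RPL36A at 35.6% unique, RPS13 at 40.7% and RPL26 at 44.7%.

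Each gene's TMM-scaled level was compared between the 2 parts of the same embryos. Most of these genes stood slightly higher in EX than in ED relative to the rest of the transcriptome. With edgeR's quasi-likelihood test, embryo as a block and Benjamini-Hochberg adjustment over 11921 genes, 23 of the 40 tested members were higher in EX and 1 was lower, against 24.5% and 30.8% of all genes tested. The fold change was above 0 for 38 of 40, and the median log2 fold change was 0.25 against -0.01 for all genes. The sizes were small: only RPS29 and RPL36 differed by more than 1 on the log2 scale.

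This direction depends on the scale. TMM factors averaged 1.096 ± 0.060 in ED and 0.936 ± 0.087 in EX (SD, n = 22 and 27), and the 10 most abundant genes took 9.38% of reads in ED and 14.0% in EX. Scaled by library size alone, the median of all genes moved to -0.25 and that of the members to -0.01, with 4 of 40 members higher and 8 lower where 9.81% of all genes were called higher and 43.5% lower. The members' median then lay 0.24 above that of all genes, against 0.26 with TMM. A change of scaling moves all genes by about the same amount, so this gap could hardly change. As a plain share of exon reads the 47 genes together were 4.76 ± 0.43% of ED and 4.52 ± 0.77% of EX libraries, and the share was higher in EX in 10 of 22 embryos. The direction is thus stated relative to the median gene and does not hold for the share of all reads.

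The marked libraries also carried part of it. Without the 6 embryos whose EX library was marked and had a disc, 8 of 40 members were higher and 2 lower, where 29.7% of all genes were called higher and 32.2% lower. The share of members called higher was then below that of all genes. The members' median was 0.11 against 0.01 for all genes. The 8 were RPS29, RPS28, RPS27A, RPS12, RPS19, RPL39, RPL34 and RPL19, and the 2 lower were RPL36 and RPS6. The part of the mark in the larger count was not tested beyond this.

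**Figure D1:**
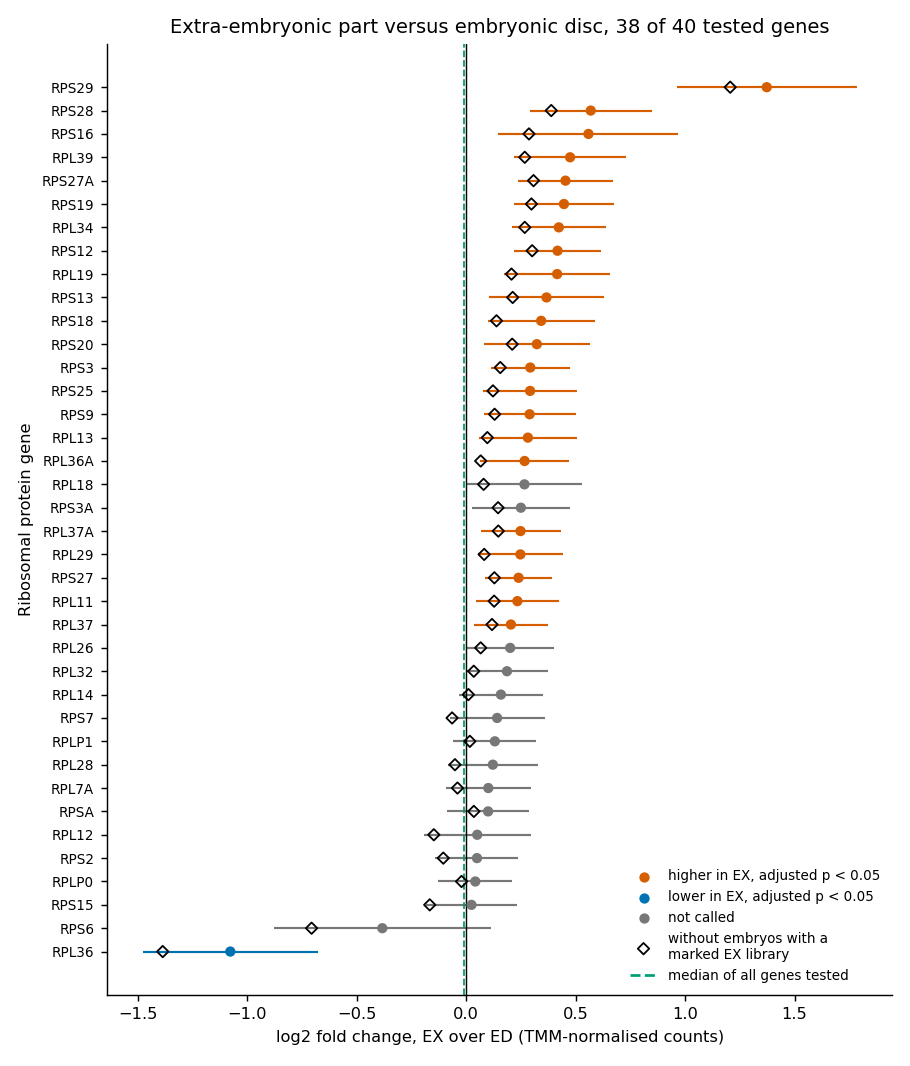
Log2 fold change of EX over ED (x axis) for 38 of the 40 tested ribosomal protein genes (y axis), with 95% intervals of the fit. Orange genes were called higher and blue ones lower at an adjusted p under 0.05, open diamonds leave out embryos with a marked EX library, and the dashed line is the median of all genes tested. RPS29 at 1.37 and RPL36 at -1.08 lie apart, and most others lie between 0 and 0.57.

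The stalk proteins RPLP0 and RPLP1, and RPSA and RPS2, were not called between the parts. RPLP0 ran from 2115 through a median of 2740 to 3681 normalised CPM in 22 discs and from 2196 through 2719 to 3804 in 27 EX libraries. The ranges overlapped almost fully. Its log2 fold change was 0.04, with a 95% interval from -0.13 to 0.21, and it was higher in EX in 13 of 22 embryos, and in 5 on library size alone. RPLP1 stood at 1934 ± 229 in ED and 2082 ± 711 in EX, a log2 fold change of 0.13 ± 0.09 (SE). RPSA stood at 2519 ± 294 and 2598 ± 410, and RPS2 at 3634 ± 387 and 3717 ± 971. On library size alone RPLP0, RPSA, RPS2, RPS15 and RPL7A were among the 8 members called lower in EX.

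Of the large subunit genes with several exons, 9 of 17 were higher in EX, with a median log2 fold change of 0.23. RPL34 ran from 407 through 504 to 616 normalised CPM in ED and from 286 through 616 to 1717 in EX. The ED range lay inside the EX range, yet 21 of 22 embryos were higher in EX, and 13 on library size alone. Its log2 fold change was 0.42 ± 0.11 (edgeR adjusted p = 0.00114). RPL19, whose level was 929 ± 155 in ED and 1222 ± 516 in EX, rose by the same amount (0.42 ± 0.12, edgeR adjusted p = 0.00377). RPL39, a very small protein that lines the exit tunnel, stood at 122 ± 40.5 in ED and 173 ± 98.2 in EX and was higher by 0.47 ± 0.13 (edgeR adjusted p = 0.00201). RPL11, which binds and restrains MDM2 when ribosome assembly fails, was higher by 0.23 ± 0.09 (edgeR adjusted p = 0.0344), and its value turned to -0.03 on library size alone. The other 5 large subunit genes called higher were RPL37 (0.20), RPL29 (0.25), RPL37A (0.25), RPL36A (0.27) and RPL13 (0.28). Those not called lay between 0.10 for RPL7A and 0.27 for RPL18, apart from the stalk proteins, and included RPL14 (0.16), RPL26 (0.20), RPL28 (0.12) and RPL32 (0.19). RPL13 differed between unmarked and marked libraries: it stood at 1287 ± 171 normalised CPM in ED, 1325 ± 128 in unmarked and 2174 ± 868 in marked EX libraries.

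Of the small subunit genes with several exons, 12 of 18 were higher in EX, with a median of 0.29. RPS12, a protein of the beak of the subunit, ran from 1210 through 1441 to 1998 normalised CPM in ED and from 1079 through 1785 to 3479 in EX. The groups overlapped, but EX was higher in 22 of 22 embryos, and in 16 on library size alone. The log2 fold change was 0.42 ± 0.10 (edgeR adjusted p = 0.000647) and 0.30 without the embryos with a marked EX library. RPS28, which lies at the exit of the messenger RNA channel, ran from 248 through 348 to 550 in ED and from 280 through 489 to 1320 in EX, with EX higher in 17 of 22 embryos, and in 16 on library size alone. Its difference of 0.57 ± 0.14 (edgeR adjusted p = 0.000778) was the highest of the several-exon genes. RPS27A, made as a fusion with ubiquitin, stood at 918 ± 130 in ED and 1224 ± 485 in EX (0.45 ± 0.11, edgeR adjusted p = 0.000652). RPS19, the gene most often mutated in Diamond-Blackfan anaemia, stood at 799 ± 157 and 1059 ± 332 (0.45 ± 0.11, edgeR adjusted p = 0.00116). The other 8 called small subunit genes lay between 0.24 for RPS27 and 0.37 for RPS13 and included RPS25 (0.29), RPS9 (0.29), RPS3 (0.29), RPS20 (0.32) and RPS18 (0.34). RPS3, a protein at the messenger RNA entry that also acts in DNA repair, stood at 1563 ± 185 in ED, 1704 ± 203 in unmarked and 2316 ± 650 in marked EX libraries. RPS18 stood at 1229 ± 173, 1306 ± 149 and 2244 ± 1028 in the same order, so in the unmarked EX libraries its mean was within the spread of the discs. RPS15 (0.02), RPS7 (0.14) and RPS3A (0.25) were not called. All 35 tested several-exon genes of both subunits had a fold change above 0, 21 were called higher and 0 lower.

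The widest differences were on single-exon rows of low level. RPS29, a zinc-binding small subunit protein, ran from 0 through 7.36 to 18.1 normalised CPM in ED and from 0 through 17.9 to 51.5 in EX. The EX median lay near the top of the ED range, and EX was higher in 20 of 22 embryos, and in 19 on library size alone. The log2 fold change was 1.37 ± 0.20 (edgeR adjusted p = 1.15e-06). It was called with uniquely placed reads (1.37), without the embryos with a marked EX library (1.21), on library size alone (1.14) and by DESeq2 (1.46). Of the discs 2 had no RPS29 read, and at their depths a count of 0 allows up to 10.5 CPM in ED CONTROL replicate 1 and 25.2 in ED HIGH PA replicate 5, which covers counting error only. The median was 18 reads in discs and 137 in EX, so its value in a single disc is coarse.

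RPL36 went the other way. It ran from 19 through 36.3 to 76.1 normalised CPM in ED and from 7.02 through 19.3 to 46.5 in EX, and was higher in EX in 4 of 22 embryos, and in 1 on library size alone. The groups overlapped over much of their ranges. The log2 fold change was -1.08 ± 0.20 (edgeR adjusted p = 2.97e-05), and -1.39 without embryos with a marked EX library. Since 0.121% of its reads were unique, it could not be tested on uniquely placed reads. RPS16, a single-exon row at 5.19 ± 4.89 in ED and 6.78 ± 2.51 in EX, was called higher (0.56 ± 0.20, edgeR adjusted p = 0.0195). RPS6, the substrate of S6 kinase, stood at 6.18 ± 5.81 and 5.13 ± 2.73 and was not called, with -0.38 ± 0.24. It was called lower without the marked embryos (-0.71).

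**Figure D2:**
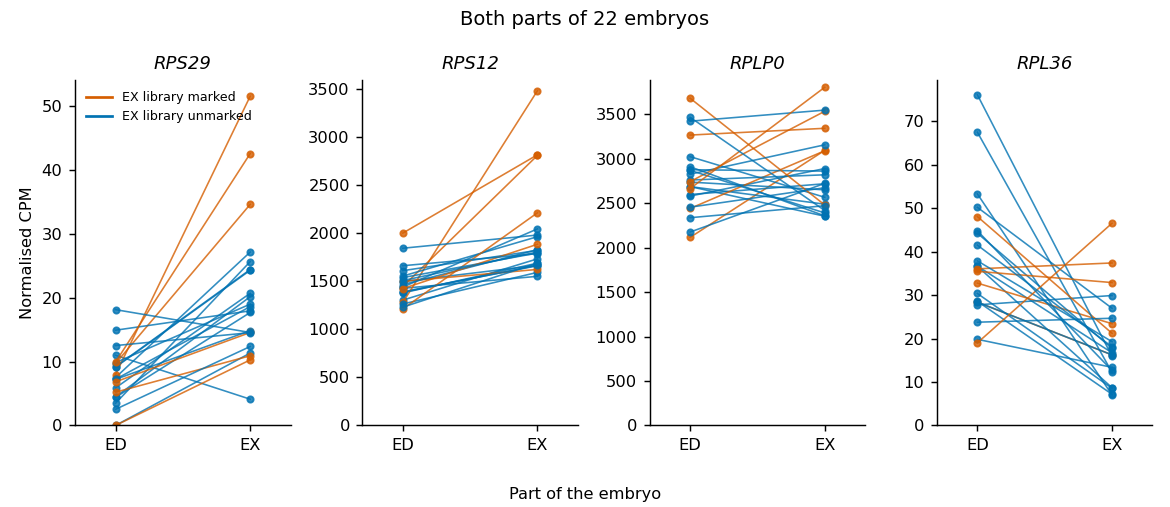
Normalised CPM (y axis) of RPS29, RPS12, RPLP0 and RPL36 in the disc and the EX part of the same 22 embryos, joined by lines, with orange lines where the EX library was marked. RPS12 rises from ED to EX in 22 of 22 embryos, RPS29 in 20, RPLP0 in 13 and RPL36 in 4, and on library size alone in 16, 19, 5 and 1.

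The genes varied together most in the EX libraries. Over 40 members and 780 pairs the median correlation of log levels was 0.42 in 22 discs and 0.81 in 27 EX libraries, but 0.42 in the 20 unmarked EX libraries. Among 477 other genes averaging over 300 normalised CPM it was 0.14, 0.13 and 0.11. These genes were not matched to the members in level, and some members, such as RPL36 and RPS29, lie below that cut. These are descriptions over libraries that share depth and scaling. The coefficient of variation in EX was 26.1% for RPS2 and 42.6% for RPS18, against 10.7% and 14.0% in ED.

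Genes that build and regulate ribosomes, from lists of textbook members, were tested in the same fit. There 24.5% of all genes were called higher and 30.8% lower. Among 52 tested genes of ribosome biogenesis, 42 were higher in EX and 1 was lower by edgeR's quasi-likelihood test (median log2 fold change 0.34, all genes -0.01). UTP4, of the complex that processes small subunit RNA, was higher by 0.52 and GRWD1, a chaperone of ribosomal protein RPL3, by 0.61. UBTF, the factor that opens ribosomal DNA for transcription, was lower, at -0.53. On library size alone the counts were 11 higher and 4 lower, and without the marked embryos 39 and 1. Among 32 translation initiation genes 18 were higher and 1 lower. EIF2B1 and EIF2B5, subunits of the exchange factor for initiation factor eIF2, were higher by 0.65 and 0.51, and the scaffold EIF4G3 was at -1.77. On library size alone 5 of them were higher and 6 lower.

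Elongation and control genes were mixed, where 24.5% of all genes were called higher and 30.8% lower. Of 12 elongation and termination genes 4 were higher (GSPT1, a release factor, 0.41 and EEF1B2, an exchange factor, 0.32) and 2 lower. The 2 lower were EEF1A2, the elongation factor form of muscle and neurons, at -5.73 and EEF2K, the kinase that slows elongation, at -0.997. On library size alone 1 was higher and 2 lower. Of 16 genes in the mTORC1, MYC and LARP1 list 5 were higher, among them AKT1 (0.46) and MAX (0.58), and 4 lower, among them the mTORC1 inhibitor TSC2 (-0.84) and MTOR itself (-0.46). The counts of that list lay near the shares of all genes, and its median log2 fold change was -0.01, as for all genes. On library size alone 2 of that list were higher and 4 lower. Of the 4 tested ribosomal protein genes outside the symbol rule, RPL7L1 was higher (0.38), while RACK1 (0.21) and FAU (0.44) were not called.

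Markers of other cell types moved between the 2 parts as well. Of 15 trophectoderm markers 8 were higher and 1 lower in EX, and 14 of 15 hypoblast markers were lower. Their summed levels were 18499 ± 3442 raw CPM in ED and 24950 ± 4686 in EX for trophectoderm. For hypoblast they were 3986 ± 1336 and 1748 ± 598. The keratins KRT8 and KRT18 made up much of the trophectoderm sum. They averaged 6432 and 6220 raw CPM in ED and 8328 and 8844 in EX. The sum therefore does not show how far other trophectoderm transcripts were present in the disc samples. The part of cell composition in the ribosomal protein differences was not tested.

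The difference between the parts was then set side by side for the 3 media, from a fit that shares 1 estimate of the spread. In BASAL embryos 20 members were higher in EX and 1 lower, with a median of 0.34, where 15.5% of all genes were called higher and 24.7% lower. In HIGH PA embryos 2 were higher (RPS29 1.23 and RPS28 0.59) and 1 lower (RPL36 -1.34), with a median of 0.23, where the shares of all genes were 13.6% and 22.6%. DESeq2 called 8 higher there, as did the fit without libraries under 10000 reads, where 20.9% and 16.9% of all genes were called higher. In CONTROL embryos 0 were higher and 1 lower (RPL36 -1.80), with a median of -0.11 and 12 of 40 above 0, where 1.98% of all genes were called higher and 11.9% lower. DESeq2 also called 0 higher in CONTROL, and 4 members had an unadjusted p under 0.05 there, all of them below 0. On library size alone, where all genes shifted lower, the medians were 0.07 for BASAL, -0.02 for HIGH PA and -0.32 for CONTROL. Without the embryos with a marked EX library BASAL had 9 higher, where 18.6% of all genes were, and CONTROL 3 lower, where 18.1% were.

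CONTROL discs held high values for some members, of which RPS28, RPS15 and RPS2 are given as examples. RPS28 read 550, 478 and 546 normalised CPM in the 3 CONTROL discs and 473, 425, 426 and 494 in the 4 CONTROL EX libraries. The highest EX library lay above the lowest disc, and the other discs lay above all EX libraries. RPS15, a protein needed for export of the small subunit, read 954, 712 and 809 in the discs and 551, 528, 562 and 678 in EX. Here the groups did not overlap, yet RPS15 was not called in CONTROL (-0.60, edgeR adjusted p = 0.119). RPS2 read 4216, 3641 and 4119 in the discs and 3030, 2944, 3162 and 3316 in EX, again without overlap and without a call. How often other genes separate so with 3 and 4 libraries was not examined. Not all members went this way. RPS12, RPS27A, RPL34 and RPS3A were higher in EX in 3 of 3 CONTROL embryos, and on library size alone in 1, 1, 1 and 3.

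The difference of the tissue effect between BASAL and CONTROL embryos was tested directly, a comparison added after the values had been seen. All 40 members had a value above 0, with a median of 0.53 against -0.01 for all genes. By edgeR's quasi-likelihood test 0 members and 0% of all genes were called. At an unadjusted p under 0.05 there were 11 members and 794 genes, and DESeq2 called 0 members. RPS16 had the lowest p (edgeR adjusted p = 0.660). Without the embryos with a marked EX library the median was 0.37. The HIGH PA effect in EX minus that in ED had a median of -0.15, with 0 members and 0% of genes called, 0 members and 366 genes at an unadjusted p under 0.05, and 0 members by DESeq2. Without the 2 libraries under 10000 reads that median was -0.07, with 12 of 40 members above 0 against 4.

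**Figure D3:**
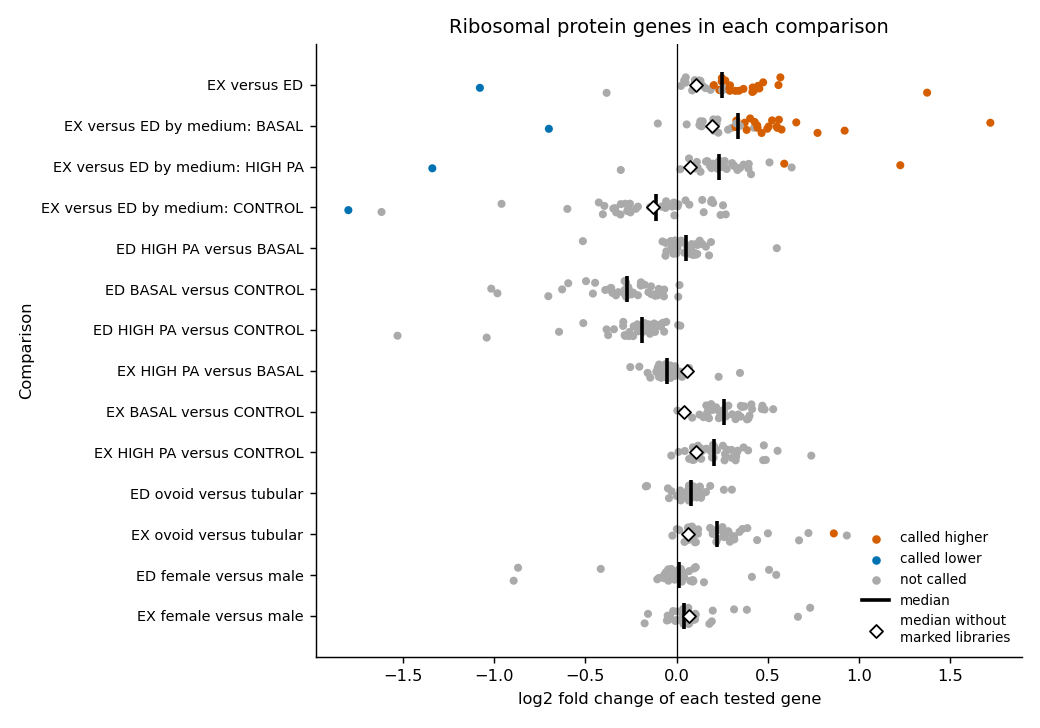
Log2 fold change of each tested ribosomal protein gene (points, x axis) in each comparison (y axis), with black bars at the members' median and diamonds at the median without marked libraries. Calls cluster in EX versus ED overall and in BASAL, and the CONTROL row lies to the left of them with a median of -0.11.

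No ribosomal protein gene was called between media in either part. For HIGH PA against BASAL in discs, 0 of 40 members and 0% of all genes were called by edgeR. One member and 1004 genes had an unadjusted p under 0.05, while DESeq2 called 0 members and 2 genes. The members' median was 0.05, and their values ran from -0.51 to 0.55. The median turned to -0.01, with 17 of 40 above 0, without the disc of 6814 reads, and was 0.20 with cow as a block and 0.26 in tubular embryos only. Without the discs under 500000 reads it was -0.06, with 7 of 40 above 0. Leaving out 1 cow at a time it ran from -0.04, without cow72, to 0.16, without cow07. RPL36 had the lowest p, with 31.2 ± 9.72 normalised CPM in 11 BASAL and 43.8 ± 15.3 in 8 HIGH PA discs and a log2 fold change of 0.55. In EX the members' median was -0.05, and 0.02 on library size alone, with 0 of 41 members and 0% of genes called, 0 members and 551 genes at an unadjusted p under 0.05, and 0 called by DESeq2. The direction of this EX median turned with the marked libraries: it was 0.06 without them, with 33 of 40 above 0, and -0.18 with the mark as a term, with 0 of 41 above 0. Leaving out 1 cow at a time it ran from -0.29, without cow07, to 0.08, without cow13. RPS12 averaged 1435 ± 206 in BASAL and 1441 ± 136 in HIGH PA discs, and 1946 ± 586 and 1799 ± 476 in the EX parts. The means differed by less than the spread between embryos. The typical SE of a member was 0.15 in discs and 0.20 in EX, and the 0.55 of RPL36 in discs was not called either.

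Against CONTROL the medians lay on opposite sides in the 2 parts, again with no call. These comparisons share the 3 CONTROL discs or the 4 CONTROL EX libraries, all of 1 cow. In discs the median was -0.27 for BASAL and -0.19 for HIGH PA, each with 2 of 40 members above 0. edgeR called 0 members and 0% of genes in both, with 3 members and 379 genes at an unadjusted p under 0.05 for BASAL and 2 and 465 for HIGH PA. DESeq2 called 0 members in both and 1 gene for HIGH PA. RPS28 had the lowest p for BASAL, with 348 ± 82.6 normalised CPM in BASAL discs, 368 ± 75.6 in HIGH PA ones and 525 ± 40.2 in CONTROL ones, a difference of -0.59 for BASAL (edgeR adjusted p = 1.00). For HIGH PA it was RPS6, at -1.53. Without the 3 libraries under 500000 reads, 1 of them a CONTROL disc of 284848 reads, the BASAL median was -0.09 and the HIGH PA median -0.16.

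In EX the median was 0.26 for BASAL, with 41 of 41 members above 0, and 0.21 for HIGH PA, with 40 of 41. edgeR called 0 members and 0% of genes in both, with 0 members at an unadjusted p under 0.05 in both and 375 and 1075 genes. DESeq2 called 0 members and 1 gene in each. RPS2 averaged 3829 ± 1073 normalised CPM in BASAL EX libraries, 3814 ± 994 in HIGH PA ones and 3113 ± 162 in the CONTROL ones. No CONTROL library was marked, and without the marked libraries the medians were 0.04, with 23 of 40 above 0, and 0.11. As shares of exon reads the 47 genes made up 4.61 ± 0.23% of BASAL discs, 4.79 ± 0.56% of HIGH PA discs and 5.24 ± 0.37% of CONTROL discs. The EX shares were 4.64 ± 0.88% for BASAL, 4.52 ± 0.76% for HIGH PA and 4.15 ± 0.16% for CONTROL.

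**Figure D4:**
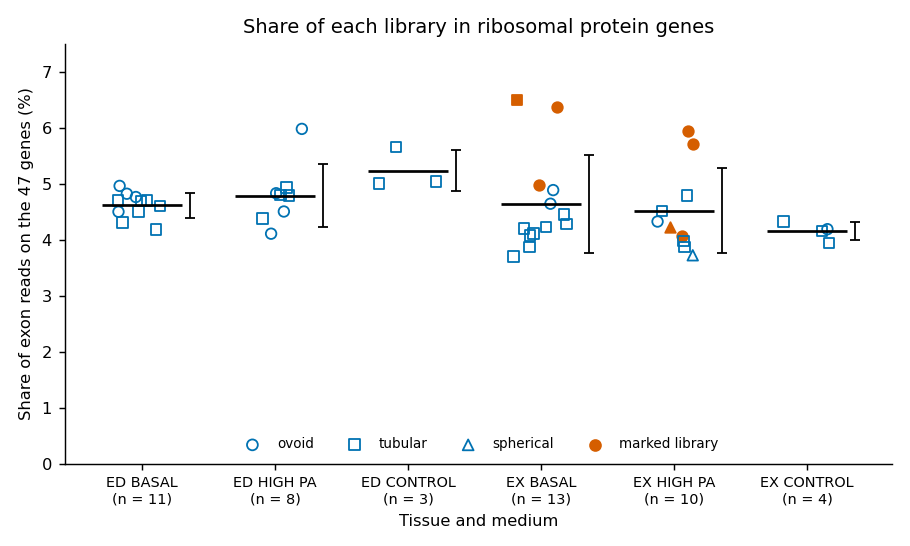
Share of exon reads on the 47 genes (y axis, percent) in each library by tissue and medium (x axis), with marker shape for embryo shape, filled orange points for marked libraries, and lines and bars for the mean and SD. The highest EX values, up to 6.51%, are marked libraries, and the 4 CONTROL EX libraries lie between 3.94% and 4.32%.

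Shape was compared because ovoid embryos are less elongated than tubular ones. In EX, 1 of 42 members was called, RPL36, higher in ovoid embryos, where 5.94% of all genes were called higher. RPL36 ran from 16.2 through 26.96 to 46.5 normalised CPM in 9 ovoid and from 7.02 through 16.1 to 43.5 in 16 tubular EX libraries. The groups overlapped over most of their ranges. The log2 fold change was 0.86 ± 0.25 (edgeR adjusted p = 0.0330). With RPL36 included, 41 of 42 members were above 0, with a median of 0.22, and RPS2 averaged 4214 ± 1109 in ovoid and 3484 ± 860 in tubular libraries. Without the marked libraries 0 members and 0.939% of all genes were called higher by edgeR, with 0 members at an unadjusted p under 0.05, and the median was 0.06. With the mark as a term the median was -0.11. Among unmarked libraries RPS2 averaged 3497 ± 290 in 4 ovoid and 3279 ± 260 in 15 tubular samples.

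The shape count also turned on single cows. Without the embryos of cow13 it was 18 of 42, where 17.3% of all genes were called higher, and without those of cow72 it was 5, where 12.3% were. Without those of cow07, cow12, cow66 or cow813 it was 0, where 0.728%, 5.33%, 0.32% and 0.0255% of all genes were called higher. The calls of all genes thus moved with single cows too. The members' median ran from 0.03, without cow07, to 0.34, without cow13. With cow as a block or lane as a term 0 members and 0% of all genes were called. In discs 0 members and 0% of genes were called between shapes by edgeR, with 0 members and 806 genes at an unadjusted p under 0.05, while DESeq2 called 0 members and 17 genes, and the members' median was 0.08. It was 0.03 without the disc of 6814 reads, 0.04 without ED BASAL replicate 12, 0.20 in BASAL and -0.16 in HIGH PA embryos only, and ran from -0.01, without cow66, to 0.12 with 1 cow left out. The ovoid effect in EX minus that in discs was not called for any member (0% of genes, 2 members and 1707 genes at an unadjusted p under 0.05, 0 members by DESeq2). For RPL36 that difference was 1.18 ± 0.35 (edgeR adjusted p = 0.206). Some cell type markers were called with shape too. In ovoid EX 3 of 14 hypoblast markers were higher and 1 lower, 3 of 15 trophectoderm markers higher and 3 lower, and 1 of 4 epiblast markers lower. Of all 11880 genes 706 were higher and 643 lower. All-gene calls fell to 190 without marked libraries and to 0 with cow as a block, and the markers were not examined in those settings. The part of the markers was not tested. The 2 spherical EX embryos had shares of 3.72% and 4.23%, and the 2 undissected embryos 4.37% and 5.72%.

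RPL36A and RPL39 are the X-linked members. RPL36A, a large subunit protein at the exit site for transfer RNA, lies on chromosome X from 55209958 to 55213506 (7 exons), and RPL39 from 97604641 to 97605063 (2 exons). Both had the lowest p of all members in the comparison of female with male embryos in each part. RPL36A ran from 488 through 668 to 787 normalised CPM in 16 male and from 701 through 835 to 1085 in 6 female discs. In EX it ran from 526.1 through 701 to 1147 in 18 male and from 852 through 1025 to 2612 in 8 female libraries. The sexes overlapped in both parts. In the unmarked EX libraries they did not, with 526.1 to 805 in 14 males and 852 to 1084 in 5 females.

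RPL39 stood at 112 ± 39.04 normalised CPM in male and 151 ± 30.8 in female discs and at 144 ± 37.9 and 242 ± 157 in EX, with overlap in both parts. By edgeR's quasi-likelihood test neither was called when all libraries were used, where 0.0543% of all genes were called in discs and 0.918% in EX. RPL36A was higher in females by 0.41 ± 0.15 in discs (edgeR adjusted p = 0.503) and 0.66 ± 0.18 in EX (edgeR adjusted p = 0.0787). RPL39 was higher by 0.51 ± 0.21 (edgeR adjusted p = 0.543) and 0.73 ± 0.22 (edgeR adjusted p = 0.129). At an unadjusted p under 0.05 they were the only 2 members in each part, and DESeq2 called 0 members in each. Without the marked EX libraries both were called, where 1.26% of all genes were: RPL36A at 0.60 ± 0.10 (edgeR adjusted p = 0.00121) and RPL39 at 0.62 ± 0.12 (edgeR adjusted p = 0.00784). Over the settings tried in EX the values ran from 0.60 to 0.67 for RPL36A and from 0.62 to 0.74 for RPL39. The autosomal RPL37A (chromosome 2), chosen for comparison after values were seen and lying between the 2 in level per kilobase, averaged 585 ± 65.1 in male and 556 ± 26.9 in female discs and 662 ± 103 and 708 ± 299 in EX. Female and male embryos were spread unevenly over media and shapes, and all 3 CONTROL discs were male.

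**Figure D5:**
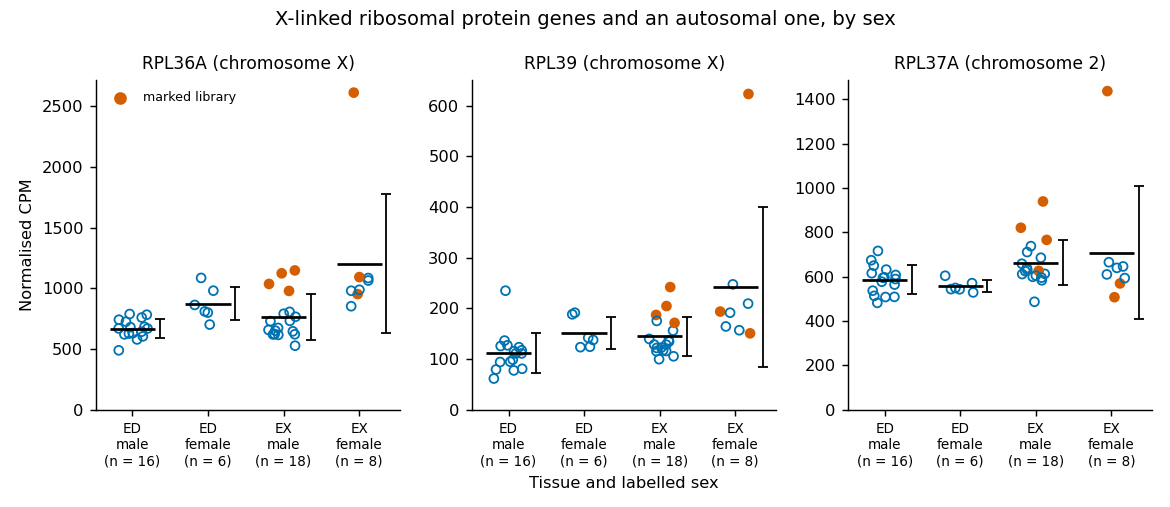
Normalised CPM (y axis) of the X-linked RPL36A and RPL39 and the autosomal RPL37A in each library by tissue and labelled sex (x axis), with lines at the means and filled orange points for marked libraries. In unmarked EX libraries all female RPL36A points lie above the male ones, from 852 against at most 805, while the sexes overlap for RPL37A.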

How the data were processed

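The authors' deposited table gives whole-number counts of exon reads, uniquely placed exon reads and intron reads for 24596 features in 53 libraries. Libraries were made with a stranded mRNA kit and sequenced as paired reads, per the labels' protocols. The submitters' processing notes name build UMD3.1 and DESeq2 1.10.1. The aligner used is not given in the sources used. Of the features, 6055 had no gene name and stayed in the totals. Among 1378 library pairs, 0 were identical.

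Total exon counts were tested in edgeR 4.0.16 (quasi-likelihood F test, TMM scaling, its default low-count filter, R 4.3.3) on all genes, with a call at a Benjamini-Hochberg adjusted p under 0.05. Media, shapes and sexes were compared within each part, with sex and, for shape, medium as terms. Parts were compared with embryo as a block over 46 libraries of 23 embryos. The block rests on shared embryos: the 2 parts of an embryo had a median correlation of deviations of 0.153 (22 pairs, 15 over 0.1), against -0.01 for different embryos. Fits with a sex term lack the EX library without a labelled sex, and no fit holds the 2 undissected embryos. Depth limits single discs most, so counts under about 10 reads carry wide error. SEs and 95% intervals come from the fit.

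Named genes were up to 6 called members of lowest p in each direction and the 3 of lowest p where fewer were called, the members of highest and lowest level, RPSA, RPLP0, RPLP1, RPL11, RPS6, members whose symbol ends in L, X-linked members in the sex comparisons, and up to 2 called genes per direction of each pathway list; others are named as values. Members and lists were chosen with earlier results of these data known. Alternatives were DESeq2 1.42.0, other scalings and filters, unique reads, cow, flush (limma 3.58.1), lane, plate row and mark, and libraries left out. Tests were tried on simulated data. Figures used Python 3.11.15 and matplotlib 3.10.9. No sequence was printed. A few genes are not reported here by name.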

Additional observations from a re-analysis of the deposited data

Results flagged for a closer look

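In 3 of 48 groups of 4 to 10 libraries checked, 1 library lay far from the others by Dixon's test, where chance gives about 1 in 20 groups. ED HIGH PA replicate 5 had the highest share of exon reads on the 47 genes of the 8 HIGH PA discs, 5.98% against 4.93% for the next, in a library of 119116 reads. ED HIGH PA replicate 8 had the highest RPL36 level of the same group, 76.1 normalised CPM against 50.2 for the next. EX HIGH PA replicate 3, a marked library, had the highest RPS2 level of 10, 6291 normalised CPM against 4636 for the next. The part of these libraries in the comparisons is given by the settings that leave libraries out.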

How the results depend on the processing

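Of the counts of called members and the shares, 191 kept their value within 1.5 times under an alternative and 38 moved, and of the named members' values 123 kept their call, 18 lost it and 1 reversed (RPL11 in EX versus ED, -0.029 on library size alone). In EX versus ED, 23 higher and 1 lower became 25 and 1 with no replicate block for the embryo, 4 and 8 on library size alone and 8 and 2 without embryos with a marked EX library, while on uniquely placed reads 0 were lower. By medium, BASAL had 8 higher on library size alone and 9 without marked embryos, and 0 lower without libraries under 10000 reads, with DESeq2 size factors or with unique reads. HIGH PA had 8 higher by DESeq2 and without libraries under 10000 reads, 6 with DESeq2 size factors and 1 on library size alone, and 0 lower with unique reads. CONTROL had 0 lower with unique reads, 4 on library size alone and 3 without marked embryos. For EX ovoid versus tubular, 1 call became 2 without libraries under 10000 reads, with no filter or with flush as a correlated block, 4 on library size alone, and 0 with unique reads, with cow as a replicate block, with lane or the mark as a term, without marked libraries, or in BASAL or HIGH PA embryos only; leaving out 1 cow at a time gave 0 to 18. For EX female versus male, 0 became 2 without marked libraries and 1 with unique reads or on library size alone. RPL36 could not be tested on uniquely placed reads, so its calls are missing there by construction. For the other changes the cause, including the part of fewer samples, was not tested. The replicate block for cow changed no call between media. Calls of all genes moved under the same settings. For EX ovoid versus tubular, 706 of 11880 genes were called higher in the main fit, 1253 on library size alone and 0 with cow as a block. For shape the counts of members thus show dependence on processing and do not set the members apart from other genes. In EX versus ED without embryos with a marked EX library, members called higher fell from 23 to 8 while the share of all genes called higher rose. Depth, 6814 to 6167850 reads in discs, limits the single-exon rows most. The additions after seeing the data were the mark, lane, library size, shallow-library and BASAL minus CONTROL settings.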
